A study of Drosophila melanogaster with 24 samples.

Results

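The RNA loci described here lie on scaffolds of the fly genome that could not be placed in a chromosome arm. They are the rows of the RNA tables whose chromosome name contains the sign _, 171 of 10253 loci, on 153 scaffolds of build dm6. Of these, 93 lie on chrUn_ scaffolds of unknown chromosome, 17 on scaffolds assigned to the X and 61 on scaffolds assigned to the Y. Names of the assigned ones start with chrX_ or chrY_ and end in _random. The median locus was 1012 bases long, within a range of 122 to 32088 bases. Only 12 of the 171 could be given a gene name by matching both ends to RefSeq genes, and 159 are given by position alone.

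The study asked what lysine 9 of histone H3 does when it can no longer be methylated or acetylated, separately for canonical H3, which is laid down at replication, and for the variant H3.3, which is deposited throughout the cell cycle. RNA was sequenced from whole larvae of instar 1 in 4 genotypes with 3 libraries each. In all 4 the endogenous canonical histone genes were deleted and replaced by a transgene array of 12 copies, so the control, HWT, is itself a rescued deletion with a wild-type array. In H3.2-K9R, called canonical K9R here, every canonical copy in the array carried arginine in place of lysine 9. H3.3-K9R_H3.2-HWT, called H3.3 K9R, had the wild-type array, but lacked H3.3A and carried the K9R change in H3.3B. H3.3-K9R_H3.2-K9R, called combined K9R, had the mutant array together with the H3.3A null and H3.3B K9R alleles. No RNA library carried the H3.3A null allele alone, so in RNA the loss of H3.3A and the K9R change of H3.3B cannot be told apart. Open chromatin was measured separately in wing imaginal discs of instar 3 by FAIRE, an assay that recovers DNA not crosslinked to nucleosomes, in yw (WT), in each of the single mutants H3.3A-null and H3.3B-K9R, and in H3.3-K9R with both alleles, all with their own canonical histone genes.

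Methylated lysine 9 of H3 is bound by the chromodomain protein HP1, and the pair marks constitutive heterochromatin around centromeres, on the Y and over repeats. Such DNA is rich in transposons, satellites and multicopy genes, which assemblers cannot place, and it therefore makes up much of the unplaced scaffolds. The tandem ribosomal RNA genes of the X and Y are an exception in being very highly transcribed from within heterochromatin, with part of the copies silenced.

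The tables hold the authors' comparisons of each mutant with HWT and no value of a single library. Depth per library is therefore unknown, and the errors below are the authors' deposited standard errors. Labels do not say whether libraries came from separate animals, so p-values measure the spread between these samples only. In the authors' deposited tables the locus of His3.3A, which also spans other sequence, stood at −0.34, −0.55 (adjusted p = 0.132) and −0.82 (adjusted p = 0.000836) on the log2 scale in canonical, H3.3 and combined K9R, and His3.3B at 0.02, 0.27 and 0.13 in that order. Mean counts were 5463 to 57613 for 4 muscle markers, 1624 to 2879 for 4 neuron markers, 62.5 to 28320 for 4 gut markers and 1.63 to 8247 for 4 fat body markers, of which apolpp was the highest and Fbp1 the lowest.

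RNA from the scaffold loci was higher in all 3 mutants, and most widely in combined K9R. In the authors' deposited tables, 78 of 161 tested scaffold loci were higher in canonical K9R and 0 lower, at an adjusted p under 0.05 in the DESeq2 Wald test. Over all loci tested there, 3.04% were higher and 0.505% lower. At an unadjusted p under 0.05, 0 scaffold loci were lower in canonical and 3 in H3.3 K9R. H3.3 K9R had 66 of 156 higher and 0 lower in the authors' deposited table, where 2.66% of all loci tested were higher and 1.65% lower. Combined K9R had 108 of 156 higher and 1 lower in the authors' deposited table, where 11.4% of all loci tested were higher and 13.6% lower. The share of scaffold loci called higher was thus 48.4%, 42.3% and 69.2% in canonical, H3.3 and combined K9R. How the RNA loci were defined is not given in the sources used here, and mutant libraries enter the mean count. Whether some loci entered only through RNA of the mutants, and so add to the higher calls, was not tested. Markers of some tissues moved with the genotypes. Of the 4 gut markers, the protease genes Jon99Ciii (−0.56 and −1.19) and Jon66Cii (−0.90 and −1.81) were lower in H3.3 and combined K9R. None of the 4 was called in canonical K9R. Of 2 fat body markers tested in H3.3 K9R, the lipoprotein gene apolpp was higher (0.62), and it was not called in combined K9R (−0.09). The cuticle gene Lcp1, 1 of 3 tested, was higher in canonical K9R (0.84, mean count 5.25). Of 2 blood cell genes, Hml was higher in H3.3 K9R (0.52) and NimC1 was not called (−0.22). In combined K9R 1 of 3 muscle genes tested (up, 0.30) and 1 of 4 neuron genes (Syt1, 0.33) were higher. The muscle gene Act57B was at −0.13 there with no call. Of 3 germline genes, 1 was lower in combined K9R (vas, −0.72), all in the authors' deposited tables. The part of tissue makeup in the scaffold result was not tested.

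The median log2 fold change over all 171 loci, tested or not, was 0.76, 0.53 and 1.36 in canonical, H3.3 and combined K9R, while the median over all 10253 loci was 0.00, −0.01 and 0.00 in the authors' deposited tables. As folds, the scaffold medians were 1.69, 1.44 and 2.57. Values above 0 were found at 160, 149 and 159 of the 171 loci in that order. A call together with a log2 fold change of 1 or more was made at 68, 58 and 94 loci. In these whole larvae, more RNA per cell and more cells that make it cannot be told apart.

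Not every locus was tested. Of the 171, 7 have no p-value in the authors' deposited tables, 4 of them with a mean count over 10000. A further 3 in canonical K9R and 8 in each of the others have a p-value without an adjusted one, all with a mean count of 6.86 or less in combined K9R, where the lowest mean count tested was 7.64. Of the 156 loci tested in all 3 tables, 51 were higher in all 3 mutants, 25 in canonical and combined K9R only, 12 in H3.3 and combined K9R only, and 20 in combined K9R only. Calls in canonical K9R only (1), in H3.3 K9R only (2) or in both without combined K9R (1) were few, and 44 loci were not called higher in any. The 3 comparisons share the control libraries, so these patterns are not independent.

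Mean count split the scaffold loci into a very abundant set with small differences and a scarcer set with large ones. The mean count is the authors' mean over all 12 RNA libraries after division by size factors. No scaffold locus had a mean count between 3387 and 14150, and the loci were divided at 10000 after this gap had been seen. The 31 loci above it held 60.1% of the summed mean counts of all 10253 loci, and the 140 below it held 0.144%. Of the 27 abundant loci that were tested, 0 were called in either single mutant (0 also at an unadjusted p under 0.05) and 5 in combined K9R (15 at an unadjusted p under 0.05), with medians of 0.17, 0.04 and 0.43 over all 31 in the authors' deposited tables. The 5 calls are 18.5% of the 27. Higher calls over all loci tested were 3.04%, 2.66% and 11.4% in canonical, H3.3 and combined K9R, and no test against these shares was made. Below the gap, 78 of 134 loci were higher in canonical K9R, 66 of 129 in H3.3 K9R and 103 of 129 in combined K9R, with medians of 0.96, 0.80 and 1.60 over all 140 in the authors' deposited tables. All calls in the single mutants were therefore made among loci that together hold 0.144% of the counts.

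**Figure D1:**
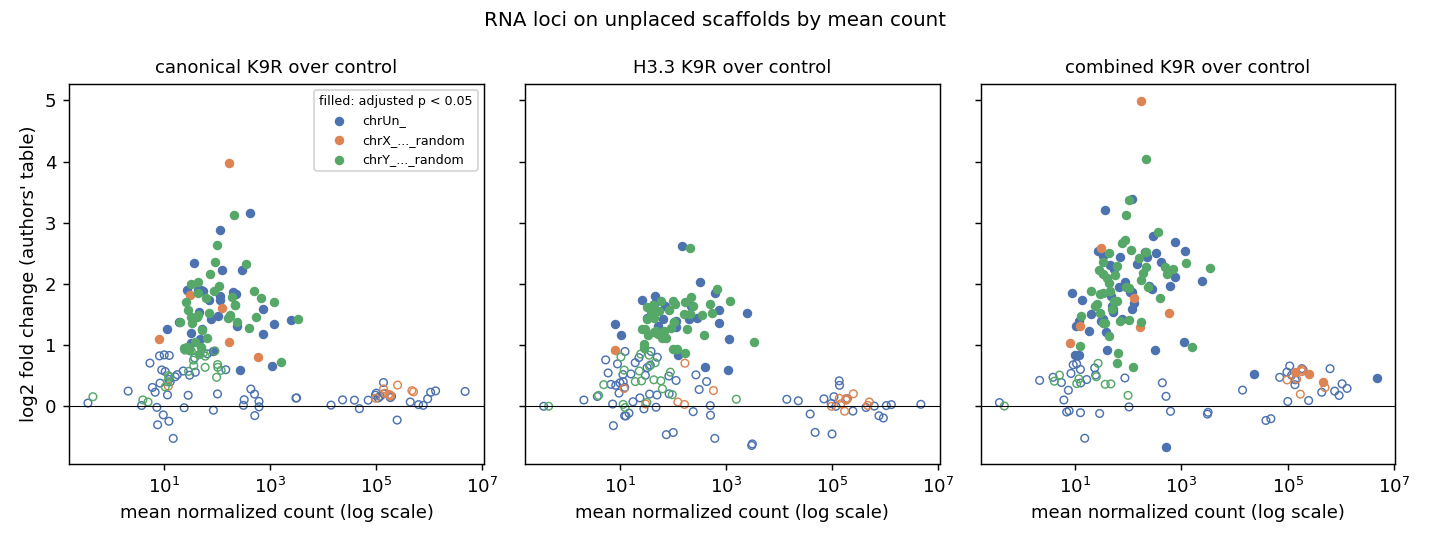
Each point is 1 of the 171 scaffold loci, plotted by mean normalized count (log axis) and by log2 fold change over control in the authors' tables, with filled points at an adjusted p under 0.05 and colours for the chrUn_, X and Y scaffolds. The loci with a mean count of 10000 or more lie near 0 in both single mutants (medians 0.17 and 0.04), and the high values lie at mean counts of about 10 to 3387.

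Among the scarcer loci, the share called higher rose with mean count up to 1000 in all 3 mutants, with few loci in the first and last bins. In canonical K9R it was 1 of 11 at mean counts under 10, 39 of 71 from 10 to 100, 32 of 44 from 100 to 1000 and 6 of 8 from 1000 to 10000. In combined K9R the same bins held 3 of 6, 55 of 71, 39 of 44 and 6 of 8, and in H3.3 K9R 2 of 6, 28 of 71, 31 of 44 and 5 of 8. The median standard error in canonical K9R was 0.30 from 10 to 100 and 0.24 from 100 to 1000. The part of this gain in precision in the shares was not tested. Spearman's rho of mean count with log2 fold change over the 140 loci was 0.37 in canonical, 0.32 in H3.3 and 0.44 in combined K9R. The points share the same libraries, and mutant libraries enter the mean count, so rho describes these tables only. The deposited fold changes of scarce loci are also bounded, since no locus with a mean count under 2 passed an absolute log2 value of 0.51 in any table.

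Longer loci had larger fold changes, up to 5000 bases. Over the 140 loci with a mean count under 10000, rho of length with log2 fold change was 0.42 in canonical, 0.23 in H3.3 and 0.33 in combined K9R, and length also went with mean count (rho 0.35). Of loci shorter than 500 bases, 9 of 24 were higher in canonical K9R, 6 of 24 in H3.3 K9R and 16 of 24 in combined K9R. Between 1500 and 5000 bases the counts were 20 of 24, 16 of 24 and 23 of 24, with medians of 1.63, 1.14 and 2.00 in the authors' deposited tables against 0.36, 0.28 and 0.95 for the shortest loci. The part of mean count in the relation with length was not tested. All 4 scarcer loci of 5000 bases or more were higher in canonical and in combined K9R and 3 of the 4 in H3.3 K9R.

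**Figure D2:**
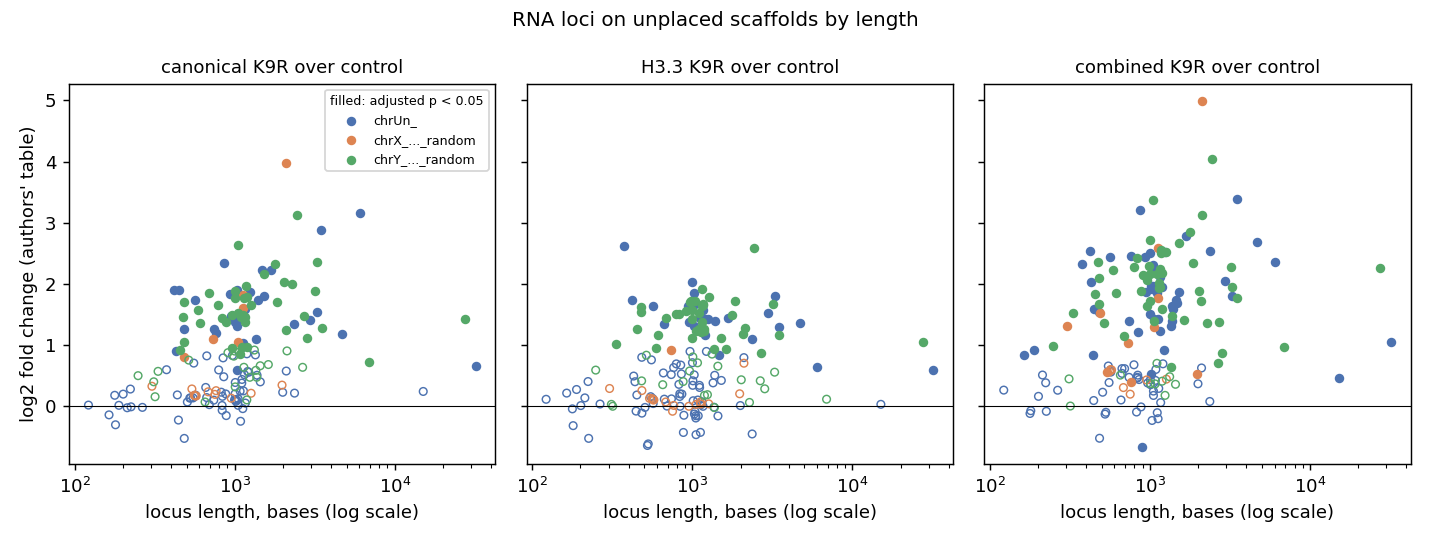
Each point is 1 of the 171 scaffold loci, plotted by locus length in bases (log axis) and by log2 fold change over control in the authors' tables, filled at an adjusted p under 0.05. Among loci with a mean count under 10000, 20 of 24 between 1500 and 5000 bases were higher in canonical K9R, and 9 of 24 under 500 bases.

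By assignment, the scaffolds of the Y held the largest share of loci higher in H3.3 K9R. On Y scaffolds, all with mean counts of 3387 or less, 41 of 60 loci were higher in canonical K9R, 40 of 58 in H3.3 K9R and 51 of 58 in combined K9R, with medians of 1.36, 1.16 and 1.86 in the authors' deposited tables. On chrUn_ scaffolds 31 of 85, 25 of 82 and 47 of 82 were higher, or 31 of 67, 25 of 64 and 45 of 64 when the abundant loci are left aside. The 7 scarcer loci on X scaffolds gave 6, 1 and 7 higher calls in canonical, H3.3 and combined K9R. These shares were not tested against each other. The labels give no sex of the larvae. The RNA lncRNA:roX2, made in males for dosage compensation and looked up after values had been seen, was at −0.15 ± 0.24, −0.06 ± 0.24 and −0.23 ± 0.24 (SE) in canonical, H3.3 and combined K9R in the authors' deposited tables.

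For comparison, 89 of 356 pericentromeric loci of the arms were called higher in canonical K9R, 27 of 345 in H3.3 K9R and 147 of 345 in combined K9R, or 42.6% in the last. On the assembled Y the shares were 29.1%, 19.1% and 40.4%, and on the arms outside the pericentromeres 0.829%, 1.38% and 8.38%. Median log2 fold changes of pericentromeric loci were 0.14, 0.06 and 0.29 in the authors' deposited tables, each below the scaffold median of the same genotype. Those of the assembled Y were 0.64, 0.41 and 0.40 in the authors' deposited tables. No test of the difference between these classes was made.

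**Figure D3:**
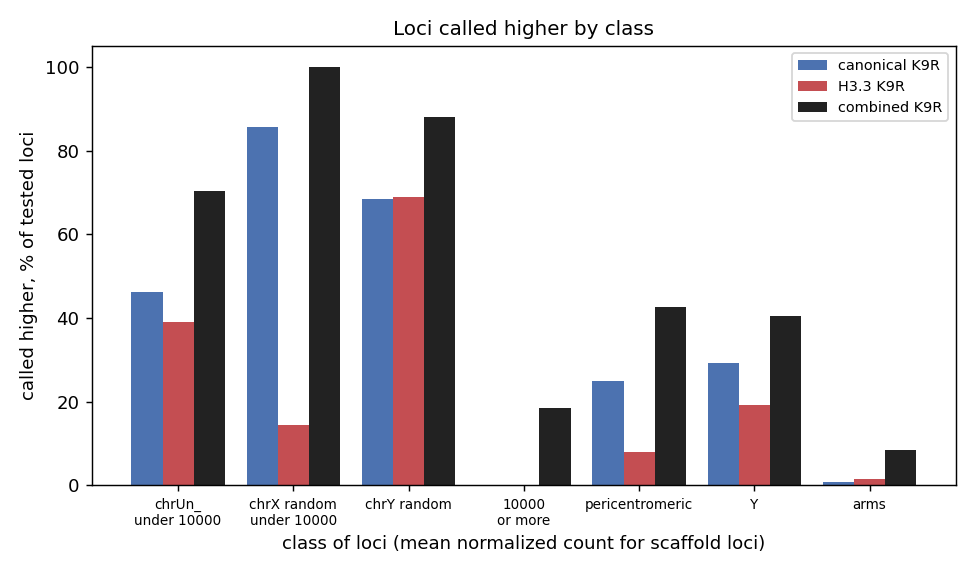
Bars give the percentage of tested loci called higher (adjusted p under 0.05) in each mutant genotype, for scaffold loci by assignment and mean count and for the pericentromeres, the assembled Y and the arms. Y scaffolds stood at 68.3%, 69.0% and 87.9% in canonical, H3.3 and combined K9R, the abundant scaffold loci at 0, 0 and 18.5%, and the X bars rest on 7 loci.

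The largest difference of any scaffold locus was on an X scaffold and went with the canonical mutation. The locus at chrX_CP007104v1_random, bases 23240 to 25339 (mean count 170), was 15.8 times the control in canonical K9R, a log2 fold change of 3.98 ± 0.25 (SE, adjusted p = 7.08e-56), in the authors' deposited table. In combined K9R it reached 4.99 ± 0.24 (adjusted p = 2.39e-89), and in H3.3 K9R 0.70 ± 0.27 (adjusted p = 0.135), in the authors' deposited tables. Its value in combined K9R was thus above that in H3.3 K9R by 4.29 ± 0.36 (adjusted p = 1.23e-28), while its excess over canonical K9R, 1.01 ± 0.35, did not pass (adjusted p = 0.112).

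At other loci too, canonical exceeded H3.3 K9R by test. At chrUn_DS485757v1, bases 124 to 983, log2 fold changes were 2.35 ± 0.30 and 0.20 ± 0.31 in canonical and H3.3 K9R, and its level in combined K9R was 9.21 times control, in the authors' deposited tables. At chrX_DS485072v1_random, bases 2 to 1128, they were 1.83, 0.04 and 2.58, and at chrUn_DS483915v1, bases 9 to 3491, which was called higher in H3.3 K9R too (adjusted p = 0.000399), 2.87, 1.30 and 3.39, in the authors' deposited tables. The scaffold chrY_CP007117v1_random carried 4 loci between bases 16 and 14071, and all 4 were higher in canonical K9R (1.11 to 2.36) and in combined K9R (0.88 to 1.95) and 0 in H3.3 K9R (0.06 to 0.56, 1 at an unadjusted p under 0.05) in the authors' deposited tables. Canonical exceeded H3.3 K9R by test at 3 of these 4, and combined exceeded canonical K9R at none, with each of the 4 lower in value in combined than in canonical K9R.

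A smaller set followed H3.3. At chrUn_DS485965v1, bases 4 to 1001 (mean count 327), log2 fold changes were 0.11 ± 0.22, 2.04 ± 0.21 and 2.50 ± 0.21 (SE) in canonical, H3.3 and combined K9R in the authors' deposited tables. The locus at chrUn_DS485918v1, bases 3 to 1020, stood at 0.08, 1.85 and 1.97, and that at chrUn_DS486004v1, bases 84 to 458, at 0.60, 2.63 and 2.33 in the authors' deposited tables. H3.3 exceeded canonical K9R at these 3 loci by 1.93 ± 0.30 (adjusted p = 1.41e-07), 1.77 ± 0.28 (adjusted p = 1.57e-07) and 2.03 ± 0.38 (adjusted p = 2.52e-05). They were the only scaffold loci where it did so, against 14 where canonical exceeded H3.3 K9R. Over all 7634 loci tested for this difference, 1.27% had canonical above H3.3 K9R and 0.341% the reverse.

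**Figure D4:**
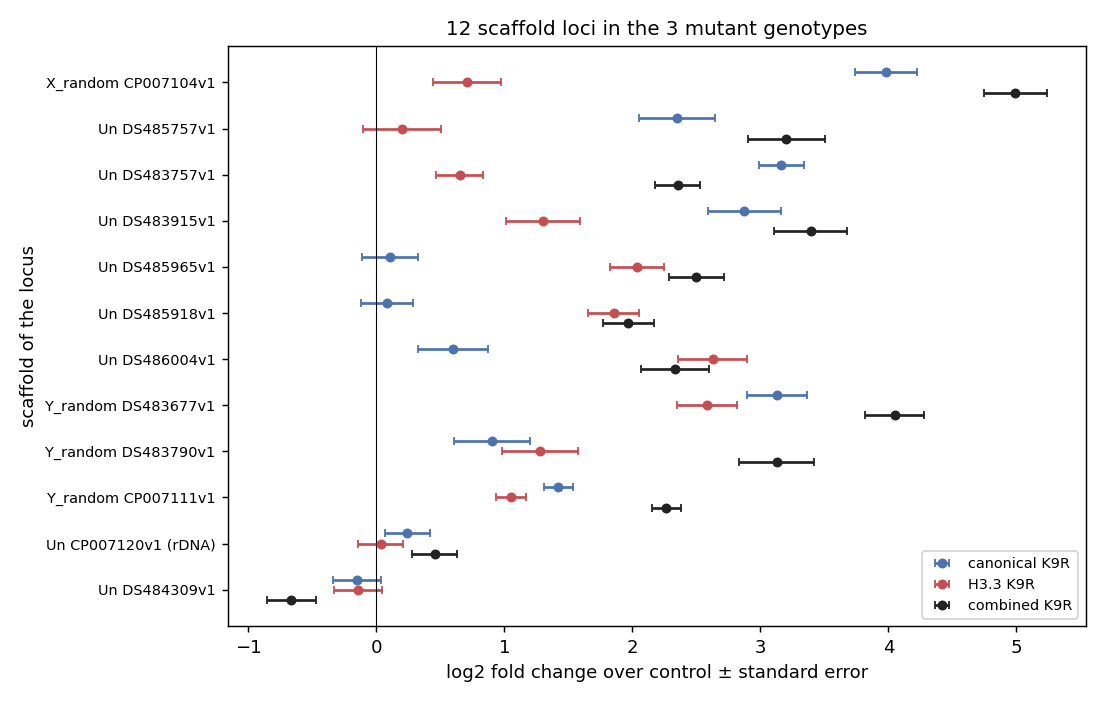
Points are log2 fold changes over control in the authors' tables for 12 scaffold loci, with bars of 1 standard error, in canonical, H3.3 and combined K9R. The locus of X_random CP007104v1 stands at 3.98, 0.70 and 4.99, that of Un DS485965v1 at 0.11, 2.04 and 2.50, and the abundant rDNA locus of Un CP007120v1 at 0.24, 0.03 and 0.46.

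Combined K9R exceeded H3.3 K9R at more loci than it exceeded canonical K9R. The difference of log2 fold changes was tested per locus, with an error from both deposited standard errors and adjustment over 7634 loci. Combined exceeded canonical K9R at 11 of 156 scaffold loci and was lower at 0 (1 at an unadjusted p under 0.05), where 0.917% of all loci were higher and 1.31% lower. Combined exceeded H3.3 K9R at 36 of 156 and was lower at 0 (0 also at an unadjusted p under 0.05), where 2.62% of all loci were higher and 2.59% lower. Over the 171 loci the median difference was 0.40 from canonical and 0.51 from H3.3 K9R. In value, combined K9R was above canonical K9R at 122, above H3.3 K9R at 133 and above both at 113 of the 156.

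The deposited fold changes of loci with few counts lie near 0, so these appear to be differences of values already drawn towards 0, and the effect of that on them was not tested. The errors count the shared control libraries in both comparisons and are therefore too large. With 50% of the smaller squared standard error taken as shared control and removed, 42 loci passed above canonical K9R and 1 below, and 63 passed above H3.3 K9R and 2 below. Of the 36 loci above H3.3 K9R, 32 were also called higher in canonical K9R, and 22 were not called in H3.3 K9R. Of the 11 above canonical K9R, 8 were called higher in H3.3 K9R and 6 were not called in canonical K9R.

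**Figure D5:**
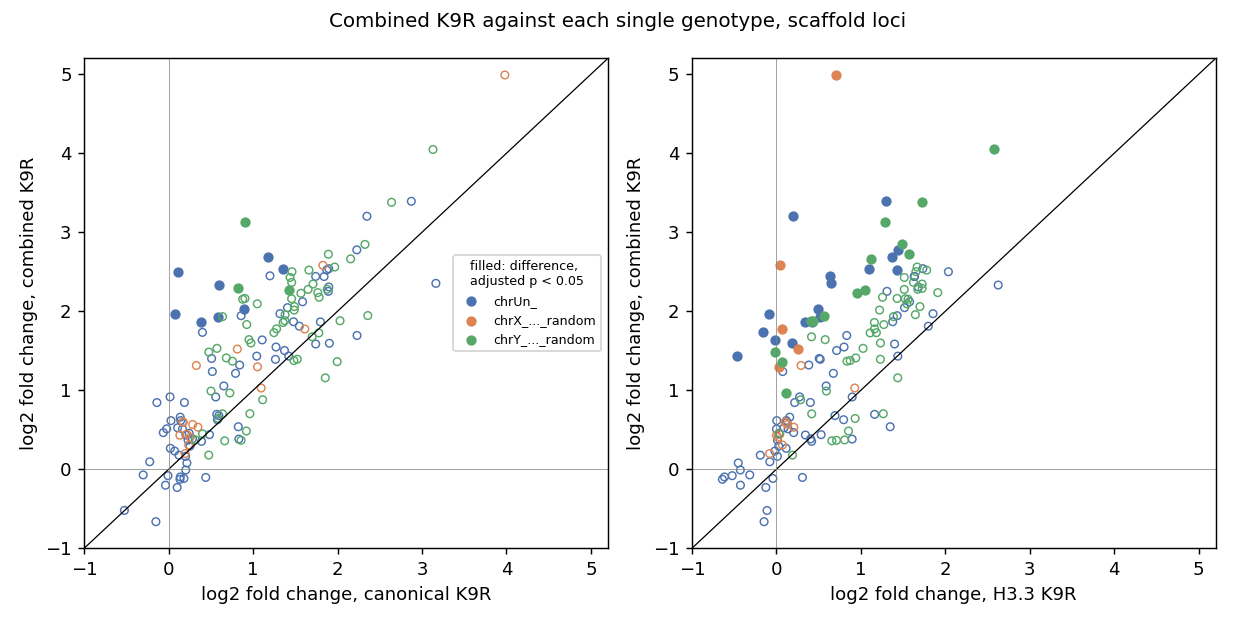
Each point is 1 of the 156 scaffold loci tested in all 3 tables, with its log2 fold change in combined K9R against that in canonical K9R (left) or H3.3 K9R (right), the diagonal marking equal values and filled points a difference with an adjusted p under 0.05. There are 11 filled points on the left and 36 on the right, all above the diagonal.

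Only 7 loci in combined K9R exceeded both single mutants by test. The largest excess over canonical K9R among them was at chrY_DS483790v1_random, bases 1494 to 3614, with log2 fold changes of 0.91 ± 0.30, 1.28 ± 0.30 and 3.13 ± 0.30 (SE) in canonical, H3.3 and combined K9R in the authors' deposited tables. It was not called in canonical K9R (adjusted p = 0.0642), and combined K9R exceeded canonical K9R there by 2.22 ± 0.42 (adjusted p = 2.9e-05). At chrUn_DS483793v1, bases 787 to 5461, the values were 1.17, 1.37 and 2.69, and at chrUn_DS484314v1, bases 20 to 2379, 1.35, 1.10 and 2.54, in the authors' deposited tables. The most abundant of the 7 was the 27424-base locus at chrY_CP007111v1_random, bases 1341 to 28764 (mean count 3387), at 1.42 ± 0.11, 1.05 ± 0.11 and 2.27 ± 0.11 in the authors' deposited tables. The other 3 lay at chrUn_DS485071v1 (bases 232 to 1258), chrUn_DS485296v1 (bases 644 to 1073) and chrUn_DS484095v1 (bases 311 to 1417), with combined K9R at 1.92, 2.03 and 1.86 in the authors' deposited table; these and the loci of chrUn_DS483793v1 and chrUn_DS484314v1 were chosen for the text after their values were seen.

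Set against the sum of the 2 single log2 fold changes, combined K9R was lower by test at 4 scaffold loci and higher at 0 (5 at an unadjusted p under 0.05), where 0.17% of all loci were lower and 0.0393% higher. The median departure from the sum was −0.22 over the 171 loci and −0.66 on Y scaffolds, but 0.072 on chrUn_ scaffolds. It was 0.25 over loci with a mean count of 10000 or more, and −0.49 over the 140 below that, with −0.28 on their chrUn_ scaffolds. The 7 scarcer loci on X scaffolds went the other way, at a median of 0.30 with 6 above 0. By mean count, the median was 0.04 under 10 (16 loci) and −0.49 from 10 to 100 (72 loci). It was −0.80 from 100 to 1000 (44 loci) and −0.05 from 1000 to 10000 (8 loci). With the shared control removed from the error, 12 loci were lower and 1 higher. The plainest case was chrUn_DS483757v1, bases 2 to 6045, at 3.16 ± 0.18, 0.65 ± 0.18 and 2.35 ± 0.18 in canonical, H3.3 and combined K9R in the authors' deposited tables. There combined K9R was below canonical K9R in value, by 0.81 ± 0.25 on the log2 scale (adjusted p = 0.0512).

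The most abundant scaffold locus lies on chrUn_CP007120v1, which carries the ribosomal DNA of Release 6, the assembly also called dm6. RefSeq lists 21 genes with the chromosome label X; Y, of which 19 are ribosomal RNA genes, pre-rRNA or their pseudogenes, and their coordinates were taken to be those of this scaffold. Its 7 loci held 32.1% of the summed mean counts, and the locus from 40088 to 55141, over a whole pre-rRNA unit with 18S, 5.8S, 2S and 28S genes, held 20.7%. That locus was at 0.24 ± 0.18, 0.03 ± 0.18 and 0.46 ± 0.18 (adjusted p = 0.0394) in canonical, H3.3 and combined K9R in the authors' deposited tables. Of the 6 loci of this scaffold that were tested it was the only one called, and over all 7 the medians were 0.12, −0.15 and 0.25 in the authors' deposited tables. RNA differences at these ribosomal DNA loci were thus small beside those of the scarcer loci, with active and silenced copies not told apart. The part of library preparation in these counts was not tested, and transcription of the ribosomal DNA itself was not measured.

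The other abundant loci called in combined K9R were chrX_DS483821v1_random, bases 1 to 765, at 0.40, chrX_DS484101v1_random, bases 930 to 2904, at 0.53, chrX_DS485599v1_random, bases 1 to 540, at 0.57, and chrUn_DS485964v1, bases 1 to 1012, at 0.52, in the authors' deposited table. All but the first of these were named after their values were seen. Per kb of locus length, chrUn_DS485462v1, bases 1 to 1134, had the highest mean count of any locus of at least 500 bases, and it stood at 0.25, 0.03 and 0.29 in the authors' deposited tables, with no call. Among the abundant loci is a chain of 5, with mean counts from 184822 to 195566, each within 5% of another of them in mean count and within 0.05 in all its log2 fold changes. How reads that fit several places were counted is not given in the sources used here, so such loci may hold the same reads.

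Among the 12 named loci, the multicopy Su(Ste) genes make up 7. In flies these Y-linked repeats give rise to piRNAs that silence Stellate genes in the male germline. Of the 7, higher calls numbered 2, 3 and 2 in canonical, H3.3 and combined K9R, of 7, 5 and 5 tested, with 0 lower, in the authors' deposited tables. Su(Ste):CR42418 (chrY_DS484142v1_random, bases 1551 to 2815) was highest of them at 1.66 ± 0.25, 1.78 ± 0.25 and 2.52 ± 0.24 in canonical, H3.3 and combined K9R in the authors' deposited tables. Su(Ste):CR42433 stood at 0.59, 0.93 and 0.64 and was called in H3.3 and combined K9R, and Su(Ste):CR42439, at 0.96, 1.27 and 0.70, in the single mutants only, in the authors' deposited tables. Copies of this family resemble each other, so their single values are uncertain.

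SteXh:CG42398, a heterochromatic relative of Stellate on chrX_DS483995v1_random, was higher in all 3 mutants at 1.10, 0.93 and 1.03 in the authors' deposited tables, with a mean count of 8.07. The longest scaffold locus, 32088 bases on chrUn_CP007081v1, is klhl10, which in flies encodes a substrate adaptor of a ubiquitin ligase needed for sperm maturation. It rose in all 3 mutants, by 0.65 ± 0.14, 0.59 ± 0.14 and 1.05 ± 0.14 (SE) on the log2 scale in canonical, H3.3 and combined K9R, with the highest adjusted p at 0.00105, in the authors' deposited tables. Gpa2, a glycoprotein hormone subunit gene on the same scaffold, was at −0.52, −0.11 and −0.52 with no call in the authors' deposited tables. The other 2 named loci, CR45932 and CG40635, had mean counts of 2.13 and 0.461 and no adjusted p-value.

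A single scaffold locus was called lower, and only in combined K9R. At chrUn_DS484309v1, bases 1498 to 2382 (mean count 517), the log2 fold change was −0.15 ± 0.19, −0.15 ± 0.19 and −0.66 ± 0.19 (adjusted p = 0.00373) in canonical, H3.3 and combined K9R in the authors' deposited tables. The difference of combined K9R from each single mutant did not pass the test (adjusted p = 0.508 and 0.325).

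Genes of the machinery that acts on heterochromatin and ribosomal DNA were compared beside the scaffold loci. Of 14 measured genes of H3K9 methylation and HP1, 0 were higher and 1 lower in canonical K9R, 1 higher and 0 lower in H3.3 K9R, and 2 higher and 3 lower in combined K9R, in the authors' deposited tables. The shares of all loci tested called higher and lower were 3.04% and 0.505% in canonical and 2.66% and 1.65% in H3.3 K9R. In combined K9R they were 11.4% and 13.6%, and no test of the gene lists against these shares was made. Su(var)3-9, an H3K9 methyltransferase, was at −0.51 in combined K9R, and wde, a partner of the methyltransferase egg, was at −0.49, 0.56 and 0.51 in canonical, H3.3 and combined K9R in the authors' deposited tables. Of 7 measured piRNA genes, 0 were called in the single mutants (1 higher and 1 lower at an unadjusted p under 0.05 in canonical, 0 in H3.3 K9R), and 1 was higher (AGO3, 0.42) and 3 lower (vas, zuc and del, −0.62 to −0.81) in combined K9R in the authors' deposited tables. AGO3 is itself a pericentromeric locus of 3L, a class with 42.6% called higher in combined K9R. Of 8 measured genes of the nucleolus and ribosomal RNA synthesis, 0 were called in the single mutants (4 lower at an unadjusted p under 0.05 in canonical, 0 in H3.3 K9R) and combined K9R had 6 lower in the authors' deposited table, among them Fib, the rRNA methylase fibrillarin, at −0.88 and RpI1, the large subunit of RNA polymerase I, at −0.75. Over all loci tested 13.6% were lower in combined K9R.

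FAIRE regions from wing discs overlapped 40 of the scaffold loci. These discs come from another stage and tissue and have wild-type canonical H3, so values are set beside the RNA without a test. There were 77 pairs of a locus and a region, from 75 regions, of which 76 were tested. In the authors' deposited tables, 35 pairs were more open and 9 less open in H3.3A-null over WT, where 4.79% of all FAIRE regions were higher and 4% lower. H3.3B-K9R had 25 higher and 8 lower, against 3.95% and 2.58% of all regions, and the double mutant 24 higher and 35 lower, against 4.71% and 3.21% of all regions, in the authors' deposited tables. Calls were also more frequent over all 1402 tested FAIRE regions on scaffolds, at 23.4% higher and 11.4% lower in H3.3A-null, 11.6% and 9.99% in H3.3B-K9R, and 17.9% and 14.2% in the double mutant. Higher calls at the scaffold loci are thus to be read against these shares. Several pairs come from the same locus, so pairs are not independent. The loci at chrY_CP007111v1_random and chrUn_DS483793v1 gave 11 and 5 of the higher pairs in H3.3B-K9R, and again 11 and 5 in the double mutant. The locus from 40088 to 55141 of chrUn_CP007120v1 gave 9 of the higher pairs in H3.3A-null and 9 of the lower pairs in the double mutant.

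FAIRE differences varied by scaffold, where more or less open stands for a higher or lower FAIRE signal. The part of DNA copy number in these differences was not tested. All 5 regions in the locus at chrUn_DS483793v1, whose RNA exceeded both single mutants in combined K9R, were more open in each FAIRE comparison, with median log2 differences of 1.01, 1.96 and 2.12 in H3.3A-null, H3.3B-K9R and both together in the authors' deposited tables. In the long Y locus at chrY_CP007111v1_random, 8, 11 and 11 of 12 regions were more open in that order. A further region of that locus, 1 of the 12, was less open in all 3, at −4.20, −0.59 and −3.11 in the authors' deposited tables. The region at chrUn_DS484309v1, the only locus called lower in RNA, and that in combined K9R alone, was less open in all 3 FAIRE comparisons. It stood at −2.94, −2.92 and −3.30 in the authors' deposited tables. This region, bases 871 to 1713, overlaps the locus only from base 1498. In H3.3 K9R, the RNA genotype with the H3.3 alleles of the double mutant, RNA of this locus was at −0.15 with no call. Of 14 regions in the ribosomal DNA locus from 40088 to 55141, 9 were more open in H3.3A-null, and 9 were less open and 1 more open in the double mutant, in the authors' deposited tables. Both regions that overlap the ends of the locus of the largest RNA difference, chrX_CP007104v1_random, were less open in the double mutant. They stood at −0.51 and −0.41 there in the authors' deposited table. The region at −0.51, bases 25302 to 25433, lies mostly outside the locus, which ends at 25339. It was not called in H3.3A-null (−0.11) or H3.3B-K9R (−0.30), and the other region was less open in both (−0.76 and −0.66).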

How the data were processed

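RNA of 4 genotypes and FAIRE of 4 others, with 3 libraries each, were compared by the authors. The submitters' processing notes name DESeq2, MACS2, TopHat2 2.1.1, Cufflinks 2.1.1, bedtools 2.2.25.0, Bowtie2 2.3.2 and SAMtools 1.5, and build dm6, and do not say which step used which. The deposited tables hold, per the file headers, a mean normalized signal over all libraries of the assay (called mean count), the log2 fold change, its standard error, the Wald statistic (a score), the p-value and the adjusted p-value, all computed by the authors. Calls used the deposited adjusted p-value at 0.05. Recomputed Benjamini-Hochberg values differed from the deposited ones by at most 2.6e-06. The largest deposited RNA standard error was 0.306, and fold changes of scarce loci appear drawn towards 0.

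Differences between genotypes were divided by the square root of both squared standard errors summed (all 3 for the sum) and tested against the normal distribution (two-sided), with Benjamini-Hochberg adjustment over the 7634 loci tested in all 3 RNA tables; the test was tried on simulated data. Scaffold loci took a gene name where both ends lay within 25 bases of a RefSeq gene. Pericentromeres began at 22 Mb on 2L and at 23 Mb on 3L and X, and ended at 5.4 Mb on 2R and 4.6 Mb on 3R. Positions are 1-based. The loci named are the extremes of mean count, mean count per kb, length, fold change and each tested difference, and those with a gene name, 40 in all. The members and lists were chosen with earlier results of these data known. Python 3.11.15, pandas 2.3.3, SciPy 1.17.1 and matplotlib 3.10.9 were used. The FAIRE table of the double mutant over H3.3A-null was not used here.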

Additional observations from a re-analysis of the deposited data

Results flagged for a closer look

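At 4 scaffold loci the effect of canonical K9R differed by test between larvae with wild-type and with mutant H3.3, measured as the departure of combined K9R from the sum of the single log2 fold changes. The departure was −1.46 ± 0.31 at chrUn_DS483757v1, bases 2 to 6045 (adjusted p = 0.00284), where the canonical effect was 3.16 without and 1.70 with mutant H3.3. It was −1.66 ± 0.40 at chrY_DS483677v1_random, bases 9731 to 12167 (adjusted p = 0.021), with effects of 3.13 and 1.47. At chrY_DS485143v1_random, bases 54 to 1203, it was −1.44 ± 0.32 (adjusted p = 0.00542), with effects of 1.77 and 0.33. At chrY_DS485755v1_random, bases 2 to 688, it was −2.13 ± 0.49 (adjusted p = 0.012), with effects of 1.85 and −0.28. Each of the 4 loci was called higher in all 3 mutants. The deposited fold changes appear drawn towards 0, more so at scarce loci, and the departures are computed from such values; the effect of that on them was not tested.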

How the results depend on the processing

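No paired analysis was possible because the tables hold no values of single libraries; for the same reason no library could be left out. Counts below are of scaffold loci. Counted on chrUn_ scaffolds only, 31, 25 and 47 loci were higher in canonical, H3.3 and combined K9R, with medians of 0.40, 0.34 and 0.68, and 17 were higher in combined minus H3.3 K9R, 8 in canonical minus H3.3 K9R and 1 lower than the sum, whose median turned to 0.072 (−0.28 below a mean count of 10000). Without Y scaffolds, chosen after seeing the data, the counts were 37, 26 and 57, with medians of 0.36, 0.21 and 0.64, and 22 exceeded H3.3 K9R; 1 was lower than the sum and the median departure turned to 0.12. With the shared control removed, 42 and 63 loci in combined K9R exceeded canonical and H3.3 K9R, 1 and 2 were lower, 26 were higher in canonical than H3.3 K9R, and 12 were lower and 1 higher than the sum. Recentred on the arms, 1 locus was lower in combined than canonical K9R. At an adjusted p under 0.01, 2 were lower than the sum, and with a log2 size of 1 or more, 0 were lower in combined K9R. The other settings (mean count of at least 10, no filter, without loci over 100000, one locus per scaffold, and, added after seeing the data, one locus per near-identical set or none at 10000 or more) left each count within 1.5 times.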
